A study of Mus musculus with 9 samples.

Results

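The 10 genes described here are early markers and regulators of lateral mesoderm and of the blood and vessel cells that form from it: Kit, Flt1, Kdr, Isl1, Hand1, Lmo2, Gata2, Gata3, Etv2 and Ets1. They were taken by name from the signal table of 9 one-colour Illumina bead arrays, and they are 10 of the 28908 differently named genes on those arrays. They have 17 of the 45281 probes, of which 15 carry the current symbol and 2 (for the Etv2 probe and for 1 of the 4 Ets1 probes) carry an older name that RefSeq lists as a synonym. RNA came from mouse epiblast stem cells, a pluripotent cell type that resembles the epiblast of the implanted embryo. The cells were male, of 129 background and carried a dsRed2 fluorescent reporter. The 3 groups, each of 3 replicates that the labels call biological, were untreated cells sorted as dsRed2 positive, untreated cells sorted as dsRed2 negative, and cells given 3 µM CHIRON for 48 h. All were kept in medium with activin A at 20 ng/ml and bFGF at 10 ng/ml. The labels name the compound CHIRON or CHI and no more; the name often stands for CHIR99021, which blocks the kinase GSK3 and thereby switches on Wnt/β-catenin signalling. What drives dsRed2 is not given in the labels. Nor do they say if treated cells went through the sorter, and in the comparisons with treated cells an effect of treatment cannot be told apart from one of sorting.

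In the gastrulating embryo, mesoderm cells leave the primitive streak and those that move to the lateral plate and the extraembryonic region form heart, vessels and blood. A Wnt signal is needed for streak and mesoderm formation. Among the 10 genes, Kdr and Flt1 encode receptors for VEGF, and Kdr is a standard surface marker of the mesoderm that gives rise to blood and vessels. Kit encodes the receptor for stem cell factor, used by blood stem cells, germ cells and melanocytes and also present on early definitive endoderm. Isl1, Hand1, Lmo2, Gata2, Gata3, Etv2 and Ets1 encode transcription factors or, for Lmo2, a bridging protein that joins them in a complex.

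The levels given are log2 signals after background correction and normalization, and a probe counts as detected on an array when its deposited detection p-value is below 0.05. The lowest detected log2 level was between 4.61 and 4.76 on each array, so values near 4.3 are background. Of the 45281 probes, 36.7% to 41.1% were detected on an array. All 9 epiblast stem cell markers examined, among them Pou5f1, Sox2 and Nanog, were detected on at least 3 arrays. By the test described below, 6 of the 9 were called lower and 2 higher in treated than in negative cells. Of all probes, 19.9% were called lower and 19.5% higher. The log2 difference was -3.46 for Nanog, -1.84 for Pou5f1 and -0.96 for Sox2. Treated replicate 3 stood apart. Over 1810 bright probes the SD of the log2 difference was 0.34 and 0.35 between it and treated replicates 1 and 2, 0.13 between those 2 replicates, and 0.20 to 0.29 between replicates of a sorted group. The summed signal of 5 fibroblast and feeder markers was 1686, 1687 and 8767 on treated replicates 1, 2 and 3, while that of 9 epiblast markers was 13680, 13050 and 7976. The brightest of these 9 was Dnmt3b, at 13.0, 12.9 and 12.0. Listed genes other than the 10 are read by their brightest probe. Of the fibroblast markers, Acta2 was at 10.2, 10.2 and 12.9 and made up most of the sum, while Col1a2, Col3a1 and Postn were detected on no array. Col1a1, Col6a1 and Bgn were also highest on replicate 3, whereas Thy1 was at 5.28, 5.43 and 5.26. Against negative cells Thy1 was called lower, by a log2 difference of -2.40, and Col1a1 and Col6a1 were called higher. Results that rest on treated replicate 3 are therefore given with and without it. Since treated replicates 1 and 2 lay closer together than any other pair of a group, and which cultures they came from is not given in the labels, the tests were also run with these 2 arrays averaged to 1 sample. Kit, Flt1, Isl1 and Lmo2, the genes called below, were called in that fit too.

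Of the 10 genes, 8 had 1 probe each that passed the filter of detection on at least 3 of the 9 arrays: Kit, Flt1, Isl1, Lmo2, Gata2, Gata3, Etv2 and Ets1. Kdr and Hand1 did not pass with any probe. In CHIRON-treated cells against dsRed2 negative cells, 4 of the 10 genes rose and 0 fell: Kit, Flt1, Isl1 and Lmo2. The same 4 were called against dsRed2 positive cells, a comparison that uses the same treated arrays. The call is limma's moderated test with Benjamini-Hochberg adjustment over all 19074 passing probes. By that test 39.4% of all probes were called against dsRed2 negative cells, 19.5% higher and 19.9% lower, and 40.1% against dsRed2 positive cells, 19.7% higher and 20.5% lower. A rise of at least 2-fold that passed the test was seen for 5.74% and 6.01% of all probes, respectively. Isl1 and Gata2 were detected on treated arrays alone and so passed the filter through the group where they were high. Over all 17 probes, without the filter, the median log2 difference from dsRed2 negative cells was 0.11, against -0.01 over all 45281 probes. That median is the value of a Kdr probe detected on no array, since 9 of the 17 probes did not pass the filter. It is therefore a background value and shows no shift of the 10 genes. In these bulk samples a higher level in each cell and a larger share of cells that express the gene cannot be told apart.

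**Figure D1:**
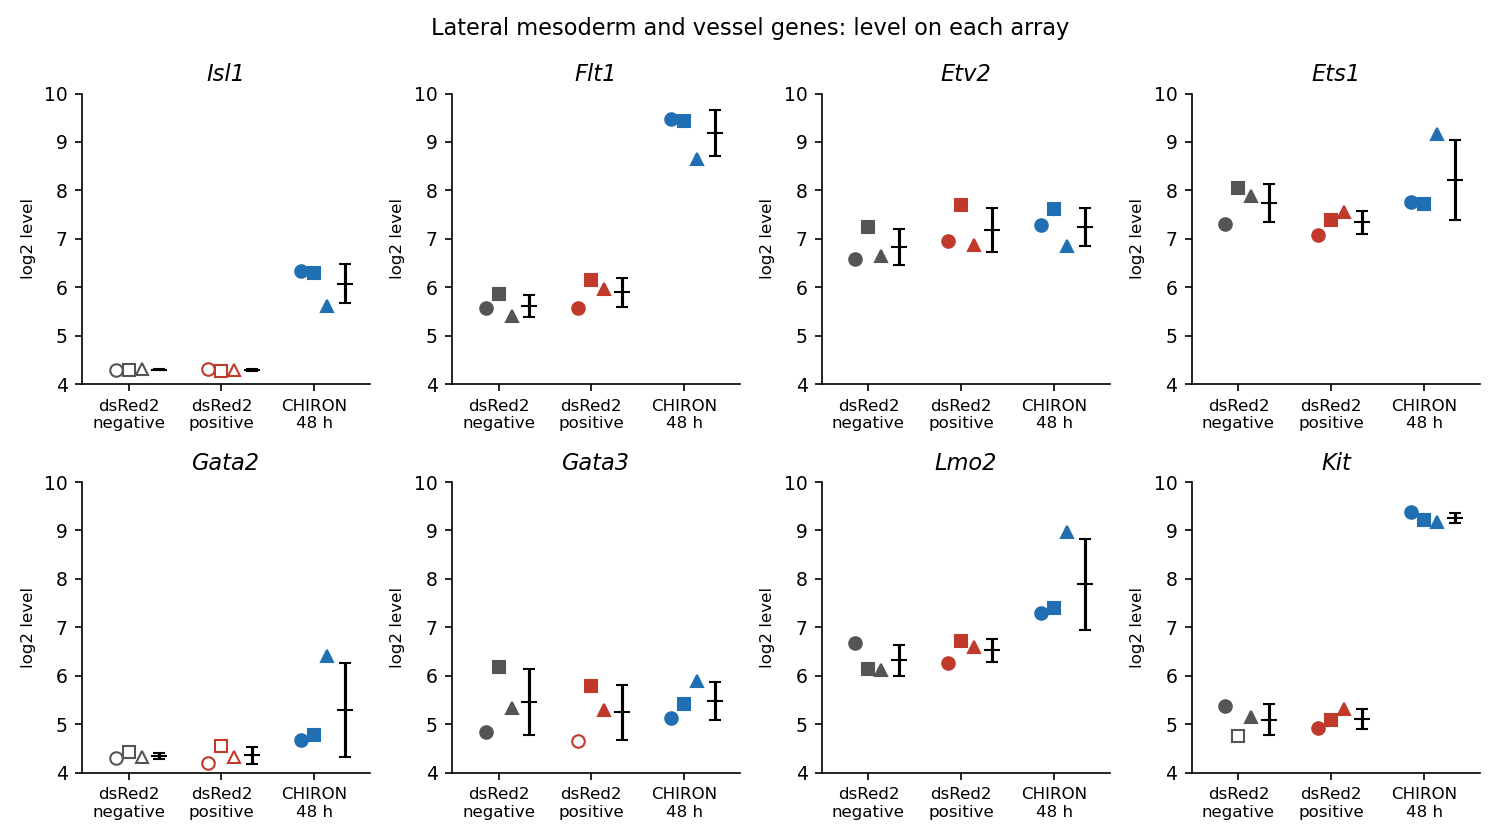
Log2 level (vertical axis) of the probe that passed the filter for each of 8 genes, on the 3 arrays of each group. Circles, squares and triangles are replicates 1, 2 and 3, open symbols are arrays on which the probe was not detected, and bars are the mean ± SD. Kit, Flt1 and Isl1 were far above both sorted groups on all 3 treated arrays, whereas Lmo2, Gata2 and Ets1 were highest on treated replicate 3.

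The promoters of 3 of the genes that rose are shown because these genes rose in the same treated arrays, and that of Kdr because it lies next to Kit in the genome and was not detected. Each line is the 250 bases before the start of the gene on its own strand, from RefSeq on GRCm38.p6, and capitals mark a match to the E-box CANNTG. The windows are chr5:75574737-75574986 on the plus strand for Kit, chr5:147726012-147726261 on the minus strand for Flt1, chr13:116309689-116309938 on the minus strand for Isl1 and chr5:75978456-75978705 on the minus strand for Kdr.
Kit: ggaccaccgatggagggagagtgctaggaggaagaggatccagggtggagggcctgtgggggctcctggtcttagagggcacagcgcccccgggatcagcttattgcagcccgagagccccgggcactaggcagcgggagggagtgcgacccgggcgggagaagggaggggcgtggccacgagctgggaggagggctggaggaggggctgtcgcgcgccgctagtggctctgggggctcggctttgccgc
Flt1: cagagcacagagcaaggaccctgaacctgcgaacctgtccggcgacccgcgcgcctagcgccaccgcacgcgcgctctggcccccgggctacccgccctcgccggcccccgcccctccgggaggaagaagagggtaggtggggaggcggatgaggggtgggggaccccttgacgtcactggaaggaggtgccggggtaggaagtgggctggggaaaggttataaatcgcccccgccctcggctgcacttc
Isl1: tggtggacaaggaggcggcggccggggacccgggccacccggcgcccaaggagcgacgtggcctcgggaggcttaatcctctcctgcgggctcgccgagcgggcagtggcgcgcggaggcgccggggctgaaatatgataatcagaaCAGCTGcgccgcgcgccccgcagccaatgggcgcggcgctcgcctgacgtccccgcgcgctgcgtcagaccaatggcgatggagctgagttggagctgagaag
Kdr: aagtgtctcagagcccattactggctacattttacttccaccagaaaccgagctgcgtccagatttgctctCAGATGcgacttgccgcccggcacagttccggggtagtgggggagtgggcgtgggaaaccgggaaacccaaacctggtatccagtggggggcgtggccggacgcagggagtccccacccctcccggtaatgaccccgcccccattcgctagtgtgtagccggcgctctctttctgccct
Promoter entries were matched for 7 of the 10 genes. Their windows were searched on both strands for CTTTGA, the core bound by the TCF/LEF factors of Wnt signalling, AGATAA for GATA factors, CGGAAG for ETS factors and CANNTG for bHLH factors such as Hand1. Of these motifs, none of which overlapped another match, only the E-box was present: CAGCTG lay 103 bases before the start of Isl1, and CAGATG 179 bases before that of Kdr. Among 32851 mouse promoter windows of the same length, 13.8% held the TCF/LEF core, 9.99% the GATA core, 13.6% the ETS core and 66.2% an E-box. The windows shown were rich in G and C, at 70.8% for Kit, 70.4% for Flt1, 71.2% for Isl1 and 61.6% for Kdr, while that of Etv2 was at 50%.

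Kit showed the largest difference of the 10 genes. Its log2 level was 5.38, 4.75 and 5.16 in dsRed2 negative replicates 1, 2 and 3, and 4.91, 5.09 and 5.32 in dsRed2 positive replicates. In the treated replicates it was 9.38, 9.22 and 9.17. The treated arrays lay close together and about 4 log2 units above both sorted groups, in which Kit was near background and undetected on 1 of the 3 negative arrays. The log2 difference was 4.16 ± 0.17 (SE, n = 3 arrays a group) from dsRed2 negative cells, a 17.9-fold rise, and 4.15 ± 0.17 from dsRed2 positive cells, with limma adjusted p of 4.31e-08 and 4.39e-08. Without background correction and in the authors' deposited values the difference from negative cells was smaller, at 2.43 and 2.61, and still called. Kit has 3 probes, and the other two did not pass the filter: one was detected on treated replicate 3 only and the other on no array. These levels near background are those of single probes, and why probes of one gene differ was not tested.

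The VEGF receptor gene Flt1 also rose. Its level was 5.56, 5.87 and 5.41 in negative cells and 5.57, 6.14 and 5.97 in positive cells, detected on all 6 arrays. In treated cells it was 9.48, 9.42 and 8.64, again with no overlap, and the lowest of the 3 was replicate 3. The log2 difference was 3.57 ± 0.23 from negative cells (limma adjusted p = 1.64e-06), an 11.9-fold rise, and 3.29 ± 0.23 from positive cells (adjusted p = 2.65e-06). The first of these differences was 2.22 without background correction and 2.38 in the authors' deposited values. A second Flt1 probe was detected on no array.

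Kdr, which encodes the main signalling receptor for VEGF, gave no signal above background. Neither of its 2 probes was detected on any of the 9 arrays. Their group means lay between 4.32 and 4.43 in treated cells, 4.32 and 4.39 in negative cells and 4.32 and 4.33 in positive cells. A level below the detection limit of these probes is therefore all that can be stated for Kdr, while Kit, its neighbour in the genome, was at 9.26 ± 0.11 (SD, n = 3) in the treated arrays through another probe.

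Of 9 ligands and co-receptors of Kdr, Flt1 and Kit, 7 were tested. Against dsRed2 negative cells 1 was called higher, where 19.5% of all probes were: Nrp1, neuropilin-1, which binds VEGF together with its receptors. Nrp1 was at 8.73, 8.66 and 10.0 in treated replicates 1, 2 and 3, and its log2 difference from negative cells was 4.44 ± 0.31 (limma adjusted p = 2.62e-06), or 4.01 without treated replicate 3. Against dsRed2 positive cells 1 rose and 1 was called lower, where 19.7% and 20.5% of all probes were called higher and lower. The lower one was Nrp2, which was detected on no treated array. Its call (limma adjusted p = 0.0431) was lost without treated replicate 2 or 3 and with arrays centred on their medians. Kitl, the gene for stem cell factor, did not pass the filter: its brightest probe was detected on 2 treated arrays and on no sorted array.

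Isl1 encodes a LIM-homeodomain factor that marks cardiac progenitors of the second heart field and is also used in motor neurons, pancreas and pharyngeal endoderm. It was detected on all 3 treated arrays and on no sorted array. The sorted values were 4.30, 4.30 and 4.31 in negative and 4.32, 4.27 and 4.30 in positive cells, which is background. In treated cells Isl1 was at 6.33, 6.29 and 5.61. Set against the lowest detected level of each sorted array, background-corrected Isl1 was at least 2.57-fold higher than in negative cells. It was at least 2.56-fold higher than in positive cells. The fitted differences had limma adjusted p of 2.74e-05 and 2.60e-05. As for Flt1, replicate 3 was the lowest treated array. The fitted log2 difference from negative cells was 1.78 ± 0.17, but 0.56 without background correction and 0.63 in the authors' deposited values.

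Hand1, a bHLH factor of lateral mesoderm, heart and trophoblast, was not measurable with its single probe. It was detected on treated replicate 2 only, at 4.69, with 4.24 and 4.38 on the other treated arrays. Its means in the sorted groups were 4.38 and 4.44. The 9 probes of the 10 genes that did not pass the filter were detected on 3 of 81 probe-array pairs, and their deposited signals lay between 88.3 and 119.7, beside array medians of 95.1 to 109. Fitted without the filter, those 9 probes had log2 differences between -0.28 and 0.30, and the lowest adjusted p among them was 0.0594.

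Of the genes for blood regulators, Lmo2 rose. It bridges DNA-binding proteins in complexes with Tal1, Gata2 and Ldb1. Lmo2 was at 6.69, 6.15 and 6.13 in negative cells and 6.27, 6.73 and 6.59 in positive cells. In treated cells it was at 7.29, 7.40 and 8.98, so that all 3 treated arrays were above all sorted arrays but replicate 3 was well above the others. The log2 difference was 1.57 ± 0.37 from negative cells (limma adjusted p = 0.00623) and 1.36 ± 0.37 from positive cells (adjusted p = 0.0127). Without treated replicate 3 the differences were 1.02 (adjusted p = 0.00263) and 0.82 (adjusted p = 0.00866). Without background correction the difference from negative cells was 0.95, and in the authors' deposited values 1.01. The call against positive cells was lost when no detection filter was used (adjusted p = 0.0694).

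Gata2, a zinc-finger factor of blood progenitors, endothelium and trophoblast, had the same order among the treated arrays. It was detected on no sorted array, at 4.31, 4.42 and 4.32 in negative and 4.20, 4.55 and 4.33 in positive cells. In treated cells it was at 4.69, 4.78 and 6.41. Replicates 1 and 2 were close to the detection limit, and only replicate 3 was well above it. The treated mean of Gata2, which rests on replicate 3, was 1.49-fold above the lowest detected levels of the negative and of the positive arrays. The difference between groups did not pass the test (limma adjusted p = 0.0569 and 0.0578). Over the alternatives that left out no array, Gata2 differed from negative cells by a log2 value of 0.30 to 1.22. Its log2 differences were 0.94 ± 0.36 and 0.93 ± 0.36 with all arrays, and 0.38 and 0.37 without treated replicate 3 (adjusted p = 0.0517 and 0.0563). Without treated replicate 1 or 2 it passed the test, at 1.25 and 1.2 from negative cells (adjusted p = 0.0234 and 0.0335) and 1.24 and 1.19 from positive cells (adjusted p = 0.0233 and 0.0333).

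For Gata3, a relative of Gata2 with roles in trophoblast, kidney and T cells, no difference passed the test. It was at 4.85, 6.19 and 5.35 in negative cells and 4.66, 5.80 and 5.28 in positive cells, and at 5.13, 5.43 and 5.90 in treated cells. The groups overlapped, and the spread within each sorted group was over 1 log2 unit. The log2 difference was 0.03 from negative cells (95% interval -0.75 to 0.80, limma adjusted p = 0.962) and 0.24 from positive cells (-0.53 to 1.01, adjusted p = 0.631).

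Of the ETS factors, Etv2 is the early regulator that switches mesoderm towards vessel and blood fate. It was at 6.58, 7.25 and 6.65 in negative cells and 6.96, 7.71 and 6.87 in positive cells, and at 7.29, 7.61 and 6.84 in treated cells. It was detected on all 9 arrays, and the groups overlapped. The difference was 0.42 from negative cells (95% interval -0.16 to 1.00, limma adjusted p = 0.236) and 0.07 from positive cells (-0.52 to 0.65, adjusted p = 0.873).

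Ets1, a broadly expressed ETS factor of vessels, lymphocytes and mesenchyme, was at 7.31, 8.06 and 7.88 in negative cells and 7.08, 7.39 and 7.56 in positive cells. In treated cells it was at 7.76, 7.72 and 9.16, so that replicates 1 and 2 were within the range of the negative cells. The difference was 0.46 from negative cells (limma adjusted p = 0.314) and 0.87 from positive cells (adjusted p = 0.0624). Without treated replicate 3 these were -0.01 and 0.40 (adjusted p = 0.981 and 0.182). Without treated replicate 1 or 2, by contrast, Ets1 passed against positive cells, at 1.10 and 1.12 (adjusted p = 0.0412 and 0.0347). The other 3 Ets1 probes did not pass the filter. Counting all 10 genes, the treated arrays lay wholly above the negative arrays for 5 passing probes and above the positive arrays for 6, where 25.0% and 25.6% of all probes did so.

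**Figure D2:**
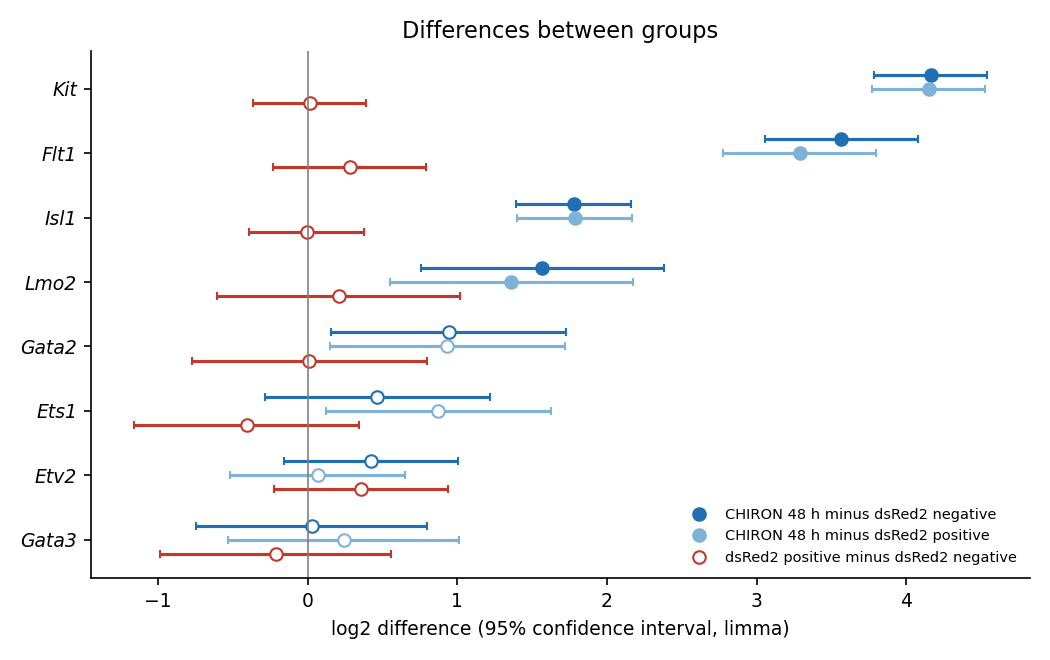
Log2 difference (horizontal axis) between groups for 8 genes, from limma, with 95% confidence intervals. Filled points passed the test at an adjusted p below 0.05. Kit, Flt1, Isl1 and Lmo2 passed in both comparisons with treated cells, and no gene passed between the sorted groups.

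The 8 genes fell into different orders across the treated replicates. Treated replicate 3 minus the mean of replicates 1 and 2 was 1.68 for Gata2, 1.63 for Lmo2 and 1.42 for Ets1, and 0.62 for Gata3. It was -0.81 for Flt1, -0.70 for Isl1, -0.60 for Etv2 and -0.13 for Kit. Over all 19074 passing probes the median of this value was -0.03, with 2.26% of probes above 1 and 0.91% below -1. The fibroblast marker sum given above, most of it Acta2, was highest on the same array as Gata2, Lmo2 and Ets1, and the part of this in their levels was not tested. Kit, with nearly equal values on the 3 arrays, kept its call when any one of the 9 arrays was left out, with log2 differences of 3.99 to 4.30 from negative cells. Flt1 and Isl1 kept theirs too, at 3.42 to 3.84 and 1.65 to 2.01.

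**Figure D3:**
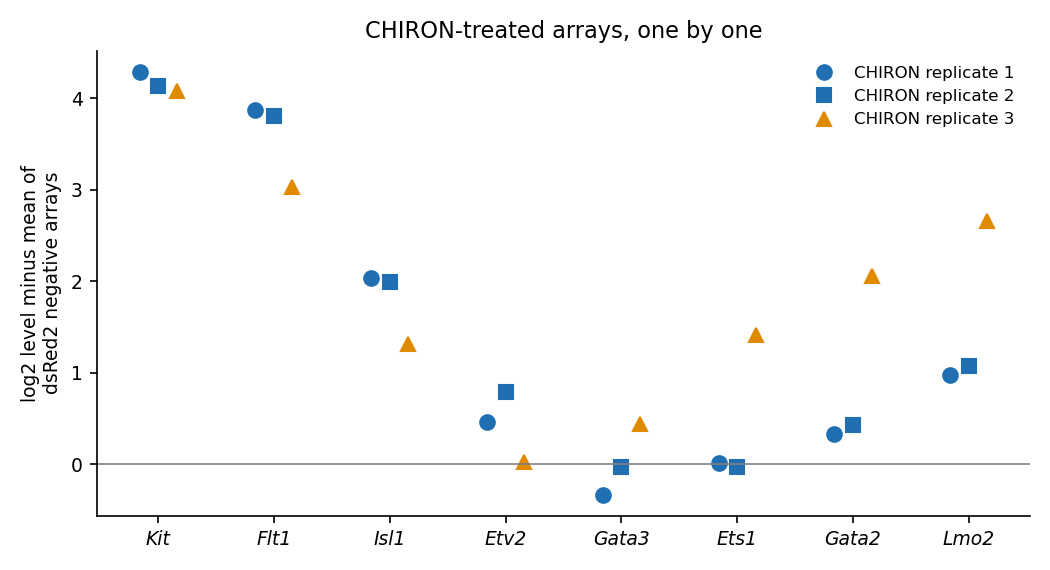
Log2 level on each treated array minus the mean of the 3 dsRed2 negative arrays (vertical axis), for 8 genes. Blue circles and squares are treated replicates 1 and 2, and orange triangles are replicate 3. Replicate 3 was the lowest for Kit, Flt1, Isl1 and Etv2 and the highest for Gata3, Ets1, Gata2 and Lmo2.

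Between dsRed2 positive and dsRed2 negative cells none of the 10 genes passed the test, and 0% of all probes did. At an unadjusted p below 0.05 there were 0 of the 8 passing probes of these genes and 2.74% of all probes. Isl1 and Gata2 were detected on no sorted array, so the sorts could not be compared for them. Kit differed by 0.01 (95% interval -0.36 to 0.39), Flt1 by 0.28 (-0.23 to 0.79), and Lmo2 by 0.21 (-0.60 to 1.02). The replicate numbers paired the sorted arrays, so the differences are also given within each pair. Etv2 was higher in positive cells in 3 of 3 pairs, by 0.39, 0.46 and 0.23, and Ets1 was lower in 3 of 3, by -0.23, -0.67 and -0.33. Flt1 was higher in 3 of 3 pairs too, by 0.01, 0.27 and 0.56, and Gata3 lower, by -0.19, -0.39 and -0.06, while Kit and Lmo2 had pairs of either sign. With the pair as a block on the 6 sorted arrays, 4 of all probes passed the test and 0 of these genes, the adjusted p being 0.429 for both Etv2 and Ets1, 0.606 for Flt1 and 0.655 for Gata3.

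Several other genes of the lateral plate and heart were called higher after treatment. Of 21 listed genes 7 were tested, and 6 were called higher and 0 lower in either comparison with treated cells. Of all probes, 19.5% and 19.7% were called higher against negative and positive cells, and 19.9% and 20.5% lower. Of those 7, 5 were detected on treated arrays alone and passed the filter through the group where they were high, so the count by itself shows no direction. Gata6, a zinc-finger factor of heart and endoderm, was at least 24.0-fold higher in treated than in negative cells (limma adjusted p = 2.63e-09). Each p given beside such a fold is that of the fitted difference. Msx1, a homeobox gene induced by BMP, was at least 10.1-fold higher (adjusted p = 1.21e-05), and Mesp1, a marker of early cardiac mesoderm, at least 3.75-fold higher (adjusted p = 0.000355). Bmp4, a signal for ventral and lateral mesoderm, was higher by 1.25 ± 0.39 (adjusted p = 0.0260), a call that was lost without negative replicate 1 or 3 (adjusted p = 0.0877 and 0.0717), and a second Bmp4 probe differed by 0.92 (adjusted p = 0.102). Without treated replicate 3 the Bmp4 difference was 0.66 (adjusted p = 0.0215). The treated replicates again differed: Mesp1 was at 7.19, 7.17 and 5.52, while Msx1 was at 7.61, 7.53 and 9.0 and Bmp4 at 8.89, 8.98 and 10.7. Hand2, Nkx2-5, Tbx5 and Foxf1 did not pass the filter and were detected on no array. Prrx1 and Myl7, each detected on 2 treated arrays, and Tbx3 and Hoxb6, each on 1, did not pass either. These were detected on no sorted array.

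Genes of differentiated endothelium gave calls in both directions. Of 24 listed genes 11 were tested. Against negative cells 2 were called higher and 3 lower, and against positive cells 2 and 2. Of all probes, 19.5% and 19.7% were called higher and 19.9% and 20.5% lower. The other 13 listed genes had no probe that passed the filter, and 1 of the 11 passed it through treated arrays alone. Sox17, a factor of both endoderm and arterial endothelium, was at least 29.5-fold higher than in negative cells (limma adjusted p = 3.42e-08). Robo4, a guidance receptor of endothelium, was at least 1.58-fold higher (adjusted p = 0.00114), though a second probe differed by -0.28 (adjusted p = 0.168). Nos3, endothelial nitric oxide synthase, fell by 2.27 ± 0.28 (adjusted p = 0.000118), and Egfl7, a secreted endothelial protein, fell by 0.89 ± 0.22 (adjusted p = 0.00778), with -0.03 at another Egfl7 probe. The defining endothelial genes Cdh5, Pecam1, Tek, Tie1, Erg and Fli1 did not pass the filter, and the brightest probes of Cdh5, Erg and Fli1 were detected on no array.

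Among blood genes 8 of 20 were tested. In both comparisons 4 rose, and 1 fell against negative and 0 against positive cells. Of all probes, 19.5% and 19.7% were called higher and 19.9% and 20.5% lower. Of the 8 blood genes, 1 was detected on treated arrays alone and passed the filter through them. Hhex, a homeobox factor of blood islands and anterior endoderm, rose by 2.56 ± 0.21 from negative cells (limma adjusted p = 7.20e-06). Epor, the erythropoietin receptor, rose by 1.13 ± 0.16 (adjusted p = 0.000269), and Ldb1, the partner of Lmo2, by 0.97 ± 0.13 (adjusted p = 0.000173). Runx1, needed for definitive blood, was at least 1.48-fold higher (adjusted p = 0.0271), at 4.97, 4.69 and 6.20 in the treated replicates. Its fitted log2 difference was 0.94 with all arrays and 0.49 without treated replicate 3 (adjusted p = 0.0162). Its call was lost without negative replicate 1, 2 or 3 (adjusted p = 0.0728, 0.0613 and 0.0552). The single fall was lost with arrays centred on their medians, with treated replicates 1 and 2 averaged, and without treated replicate 1, each leaving 0. Tal1, Gata1, Spi1 and Klf1 were detected on no array.

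Of 20 GATA, LIM-domain and ETS relatives of the 10 genes, 13 were tested. Against negative cells 9 rose and 1 fell, where 19.5% of all probes were called higher and 19.9% lower. Against positive cells 8 rose and 2 fell, where these shares were 19.7% and 20.5%. Of the 13, 2 were detected on treated arrays alone and passed the filter through the group where they were high. Lhx1, a LIM-homeodomain factor of lateral and axial mesoderm, rose by 6.98 ± 0.28 from negative cells (limma adjusted p = 3.71e-08). Elk3, an ETS factor of vessels, rose by 1.93 ± 0.36 (adjusted p = 0.00164), at 8.03, 7.90 and 9.66 in the treated replicates, or by 1.36 without replicate 3 (adjusted p = 5.37e-05). Etv5, an ETS factor downstream of FGF, fell by 1.38 ± 0.12 (adjusted p = 9.38e-06). With treated replicates 1 and 2 averaged, 6 of these genes rose against negative cells.

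**Figure D4:**
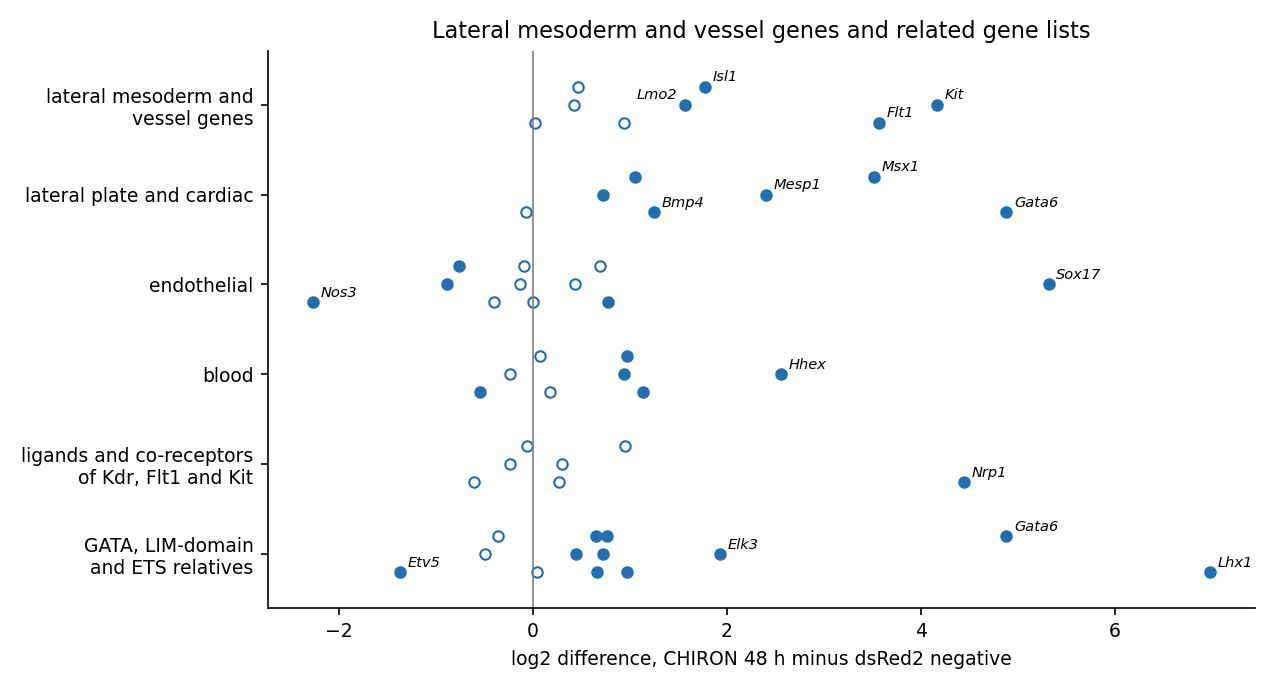
Log2 difference between CHIRON-treated and dsRed2 negative cells (horizontal axis) for the tested genes of each list, 1 point a gene. Filled points passed the test at an adjusted p below 0.05, and called genes beyond about 1.2 are named. Endothelial genes lie on both sides of 0, with Sox17 the only one far to the right.

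Several of the 10 genes are also markers of other cell types, whose lists moved in the same arrays. The definitive endoderm list, which includes Sox17, Gata6 and Hhex, had 7 of 7 genes called higher, 4 of which were detected on treated arrays alone and so passed the filter through them, and its summed signal was 2603 to 3797 in treated cells against 216 to 256 in negative and 232 to 273 in positive cells. Of the trophoblast list, which holds Hand1, Gata2 and Gata3, 9 of 14 genes were tested and 7 rose, all but Gata2 and Gata3. Of these 9, 2 were detected on treated arrays alone and passed the filter through them. Its sums were 6535 to 6982, 2599 to 3208 and 1877 to 2504, with Krt8 the brightest gene, at 12.1 in treated cells. Of all probes, 19.5% and 19.7% were called higher against negative and positive cells. The trophoblast markers Elf5, Tpbpa, Prl3d1 and Gcm1 were detected on no array. Of the germ cell list, which holds Kit, 2 of 8 genes were tested, Kit and Tfap2c, and both rose. Its defining genes Prdm1, Prdm14, Dppa3, Ddx4 and Dazl were detected on no array. Nanos3, also on that list, was detected on 1 treated array and on no sorted array, and did not pass the filter. The part of these cell types in the levels of the 10 genes was not tested.

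For each of the 4 genes that rose, the genes most like it across the 9 arrays were listed. Out of 10490 named genes, log2 levels most like those of Isl1 were those of Sstr2, Ffar4 and Sema6d (Pearson r = 0.9997, 0.9991 and 0.9979). For Flt1 they were Tcstv3, Fzd5 and Hhex (0.9949, 0.9948 and 0.9946), and for Kit Tenm4, Sox9 and Gata6 (0.9970, 0.9967 and 0.9966). For Lmo2 they were Stambpl1, Hs3st1 and Pcsk6 (0.9887, 0.9798 and 0.9788). These coefficients are a description over 9 arrays that form a treated and a sorted set. They do not separate likeness between the sets from likeness within a set. The 4 genes were chosen as different between those sets, so a like step raises the value. A like spread among the treated arrays, which for Lmo2 were at 7.29, 7.40 and 8.98, enters it too.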

How the data were processed

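RNA of 9 samples was amplified with a TotalPrep kit and hybridised to one-colour Illumina arrays, per the labels' protocols. The deposited intensity is a signal per probe and array, not normalized, per the file headers, and each has a deposited detection p-value. The deposited log2 values had been normalized with lumi, per the submitters' processing notes, whose method and version are not given in the sources used. From the intensities, neqc of limma 3.58.1 (R 4.3.3; normexp from the detection p-values, offset 16, quantile, log2) gave the levels. The 19074 of 45281 probes detected (detection p-value under 0.05) on 3 or more of the 9 arrays were fitted with lmFit and eBayes on all 9 arrays by group, two-sided, with Benjamini-Hochberg adjustment over all of them at 0.05. The number of arrays limits the precision. Where no array of the dimmer group detected a gene, the fold is "at least N-fold", against the lowest detected signal of each array or the probe's own if higher. Such a fold holds for the background-corrected levels only, and a p given beside it is that of the fitted difference.

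The 10 genes, the lists and the tests were chosen with earlier results of these data known. The rule for names took all 10 genes, up to 4 called genes per related list without overlap between groups and with the largest difference from dsRed2 negative cells, up to 3 per marker list, and the 3 most correlated genes; genes named as not passing or undetected lie outside it. List genes with several probes are read from the brightest passing one. Of 30869 symbols, 16219 were current, 5710 were updated through RefSeq synonyms and 8940 kept. Same-numbered sorted arrays deviated together (r = 0.50, 0.56 and 0.33 across probes), so the numbers pair the sorts; with treated arrays r lay between -0.13 and 0.09. The fit was tested on simulated data with independent noise. Those data held neither the pairing of the sorts nor a treated array that stood apart, so the fit was not tested for these.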

Additional observations from a re-analysis of the deposited data

How the results depend on the processing

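Kit, Flt1 and Isl1 stayed called in both comparisons with treated cells under every alternative run, but the size depended on the background correction. From dsRed2 negative cells, with no background correction and with the deposited log2 values, the differences were 2.43 and 2.61 for Kit, 2.22 and 2.38 for Flt1, 0.56 and 0.63 for Isl1 and 0.95 and 1.01 for Lmo2, all called. From dsRed2 positive cells they were 2.43 and 2.61, 2.11 and 2.27, 0.57 and 0.63, and 0.85 and 0.91. Centring arrays on their medians in place of quantile normalization moved the median of all probes by 0.14 against negative and 0.12 against positive cells, and 69.1% and 65.9% of the called probes were then higher, against 49.4% and 49.1%; 4 of the genes were still called higher in each comparison. Gata2 passed with treated replicates 1 and 2 averaged (1.22, adjusted p = 0.0279, from negative; 1.21, 0.0280, from positive cells), and Ets1 then passed against positive cells (1.11, adjusted p = 0.0380). Averaging these 2 arrays gives replicate 3 more weight. Over all alternatives, 4 to 6 of the genes' probes were called against negative cells and 3 to 6 against positive cells. The number of their probes fitted was 8, but 17 with no detection filter, where the count of 3 arose. It was 7 with detection p-values below 0.01 on at least 3 arrays. Of the 13204 to 45281 probes fitted in all, 5280 to 8451 were called against negative and 5420 to 9497 against positive cells.

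The treated arrays share only numbers with the sorted ones. With the replicate block on all 9 arrays, 6 of the genes' probes and 7924 of all probes were called against negative cells, the added ones being Etv2 (0.42, adjusted p = 0.0323) and Gata2 (adjusted p = 0.0438), and 6 and 8136 against positive cells, with Ets1 (adjusted p = 0.0219) and Gata2 (adjusted p = 0.0443) added. With the block on the 6 arrays compared, Ets1 and Gata2 also passed against positive cells (adjusted p = 0.0187 and 0.0480). On the 6 sorted arrays the replicate block gave 4 calls among all probes, where the fit without it gave 0. Small differences that missed the test changed sign. Gata3 against negative cells was -0.0069 without background correction and -0.20 with array weights; Etv2 against positive cells was -0.035 with treated replicates 1 and 2 averaged; Gata2 between the sorts was -0.011, -0.016 and -0.0023 without background correction, with deposited values and with array weights. Leaving out 1 array gave -0.0088 to 0.71 for Ets1 and -0.28 to 0.39 for Gata3 against negative cells, -0.055 to 0.52 for Gata3 and -0.12 to 0.33 for Etv2 against positive cells, and, between the sorts, -0.52 to 0.15 for Gata3, -0.084 to 0.088 for Gata2, -0.017 to 0.0066 for Isl1 and -0.16 to 0.15 for Kit. The cause was not tested. Signals near the array medians limit Kdr, Hand1, Gata2 and Isl1, whose levels in sorted cells have no lower bound here.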
